A study of Homo sapiens with 2 samples.

Results

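The genes described here encode the enzymes that hydroxylate and cross-link collagen: the prolyl 4-hydroxylase alpha subunits P4HA1, P4HA2 and P4HA3, the lysyl hydroxylases PLOD1, PLOD2 and PLOD3, and the lysyl oxidases LOX, LOXL1, LOXL2 and LOXL4. They were taken by gene symbol, and all 10 were found among the 25343 gene entries. The RNA came from Huh7, an established human cell line from a well differentiated hepatocellular carcinoma. Cells were seeded at 500000 per well and then held for 6 days in low glucose medium (0.45 g/L) or high glucose medium (4.5 g/L). Each medium is represented by 1 library, so no difference below has a replicate check and no test between media was possible. At each passage live cells alone were put back, per the labels' protocols, and whether wells were pooled for RNA is not stated there.

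Collagen chains are modified before and after they leave the cell. In the endoplasmic reticulum, prolyl 4-hydroxylases convert prolines to 4-hydroxyproline, which holds the triple helix together at body temperature, and lysyl hydroxylases convert lysines to hydroxylysine, which carries sugars and forms stable cross-links. Both enzyme families are oxygenases that use iron, 2-oxoglutarate, molecular oxygen and ascorbate. Outside the cell, lysyl oxidases, which are copper-dependent amine oxidases, turn lysines and hydroxylysines of collagen and elastin into the reactive aldehydes from which cross-links form. In injured liver these enzymes are known mainly from matrix-producing stellate cells and fibroblasts, and hepatoma cells express several of them.

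In low glucose, LOXL2, LOXL4 and P4HA2 were at least 2-fold higher than in high glucose, PLOD1 was higher by less than that, and PLOD2 and LOX were nearly level. Values are TPM, a share of transcripts scaled by their length, with a total of 1000000 per library. Differences are log2(TPM + 1) in low glucose less the same in high glucose, taken for genes with a mean of at least 1 TPM, and the 2-fold rule asks for 1 or more, or -1 or less. Of the 10 genes, 8 reached that level, and 3 of these were at least 2-fold higher while 0 were at least 2-fold lower. Of all 13745 genes compared, 3.65% were at least 2-fold higher and 1.10% at least 2-fold lower. The median difference was 0.67 over the 8 genes and 0.51 over all 10, against 0.05 over all genes compared. The summed TPM of the 10 genes was 1011 in low glucose and 636 in high glucose, a ratio of 1.59. The number of reads behind these values is not known, so no counting interval can be given. In cultures measured in bulk, more cells with a transcript and more of it per cell cannot be told apart.

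**Figure D1:**
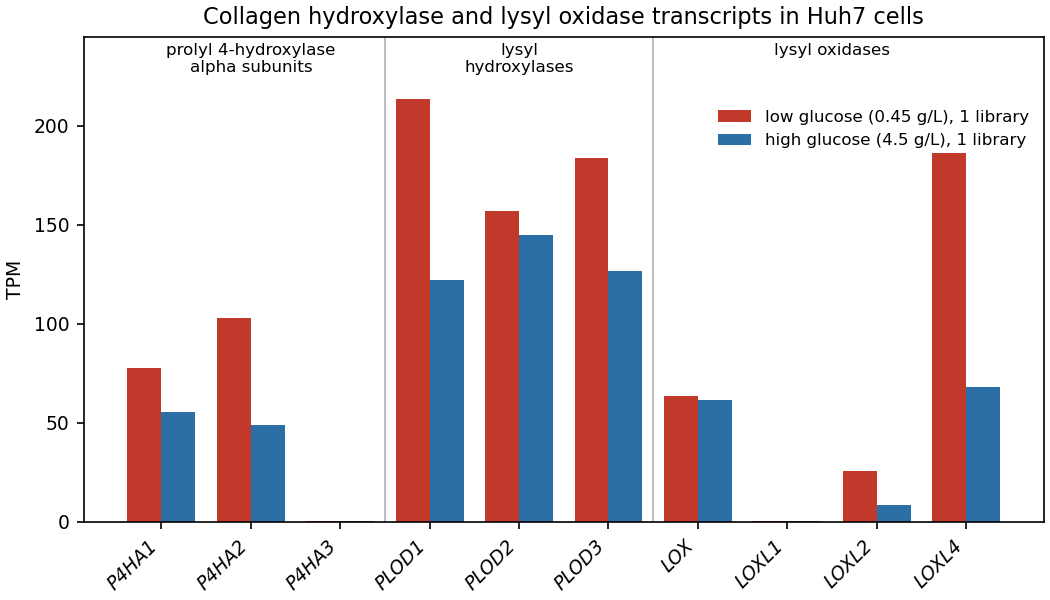
TPM of each gene in the low glucose library (red) and the high glucose library (blue), with 1 library per medium and therefore no error bars. PLOD1 reached 214 TPM in low glucose, LOXL4 stood at 186 against 68.1 TPM, and P4HA3 and LOXL1 were close to 0 in both libraries.

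The label of the cells was checked against marker genes. Of 10 hepatocyte markers, all were detected and 0 met the 2-fold rule, with summed TPM of 38539 in low and 45502 in high glucose. In low glucose 7 of them were lower and 3 higher, with a median difference of -0.20, while 54.6% of all genes compared were higher. TTR, named after its values were seen, fell just short of the rule, at 682 TPM in low and 1351 TPM in high glucose (-0.99). The 10 markers of fibroblasts and stellate cells summed to 28.1 and 29.8 TPM in low and high glucose. Of these, 5 were below the level compared, with THY1 at 0 in both libraries, while PDGFRB (8.82 and 8.12 TPM in low and high glucose), PDGFRA (7.89 and 13.8 TPM), RGS5 (3.85 and 4.22 TPM) and COL3A1 (2.91 and 2.09 TPM) were detected in both. COL1A1 alone met the 2-fold rule, at 4.03 TPM in low and 1.06 TPM in high glucose. Endothelial markers summed to 2.21 and 2.14 TPM in low and high glucose. The 5 markers of blood cells and macrophages summed to 240 and 575 TPM in low and high glucose. Of these, LYZ met the rule as lower (198 TPM in low, 550 TPM in high glucose, -1.47), CD68 stood at 39.3 TPM in low and 20.4 TPM in high glucose (0.91), CD14 at 2.26 and 3.04 TPM, PTPRC at 0.50 and 0.83 TPM and CSF1R at 0.03 and 0 TPM. Whether cells of another type have a part in the values of the collagen enzymes was not tested.

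The prolyl 4-hydroxylase is a tetramer of catalytic alpha subunits and a beta subunit, protein disulfide isomerase. P4HA1 (chromosome 10, 74766980 to 74856732; all gene intervals are on hg19) encodes the alpha subunit that predominates in most cell types. It stood at 77.4 TPM in low and 55.4 TPM in high glucose, a log2 difference of 0.48, which is short of the 2-fold rule and at the 82.4th percentile of all genes compared. P4HA2 (chromosome 5, 131528304 to 131563556), the alpha subunit best known from chondrocytes and other skeletal cells, stood at 103 TPM in low and 48.9 TPM in high glucose. Its difference of 1.06 was at the 96.9th percentile and only just past the rule, and it fell to 0.97 under median-of-ratios and under trimmed-mean scaling. P4HA3 (chromosome 11, 73977694 to 74022721), the least abundant alpha subunit, stood at 0.14 TPM in low and 0.15 TPM in high glucose and was below the level compared.

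The more abundant alpha subunit was P4HA2 in low glucose and P4HA1 in high glucose. P4HA2 made up 57.0% of the summed alpha subunit TPM in low glucose and 46.8% in high glucose. P4HA1 made up 42.9% in low and 53.0% in high glucose, and P4HA3 0.078% in low and 0.14% in high glucose. The ratio of P4HA2 to P4HA1, formed within each library and so independent of its scaling, was 1.33 in low and 0.88 in high glucose. Without replicates, the order of P4HA1 and P4HA2 in high glucose cannot be told from equality. The 3 alpha subunits summed to 181 TPM in low and 104 TPM in high glucose.

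The beta subunit differed less than P4HA1 or P4HA2. P4HB, which also serves as a general disulfide isomerase of the endoplasmic reticulum, stood at 1282 TPM in low and 1140 TPM in high glucose, a difference of 0.17. It exceeded the summed alpha subunits 7.10 times in low and 10.9 times in high glucose. In both libraries the alpha subunit transcripts were the scarcer of the tetramer's parts.

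The lysyl hydroxylases were the most abundant of the 3 families in both libraries, with summed TPM of 555 in low and 393 in high glucose, a ratio of 1.41. PLOD1 (chromosome 1, 11994724 to 12035599), which acts mainly on lysines within the collagen triple helix, stood at 214 TPM in low and 122 TPM in high glucose. Its difference of 0.80 lay at the 93.5th percentile and short of the 2-fold rule. PLOD3 (chromosome 7, 100849258 to 100861011), which also adds sugars to hydroxylysine, stood at 184 TPM in low and 126 TPM in high glucose, a difference of 0.54 at the 85.0th percentile. PLOD2 (chromosome 3, 145787228 to 145879282), which hydroxylates lysines in the telopeptides at the ends of the helix, stood at 157 TPM in low and 145 TPM in high glucose. Its difference of 0.11 was at the 56.1st percentile, close to the middle of all genes.

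The order of the lysyl hydroxylases by TPM value differed between the libraries, though most gaps between them were small. In low glucose PLOD1 was the highest of the family and PLOD2 the lowest, whereas in high glucose PLOD2 was the highest and PLOD1 the lowest. PLOD1 held 38.5% of the family's TPM in low and 31.0% in high glucose. PLOD2 held 28.3% in low and 36.9% in high glucose, and PLOD3 stayed near a constant part of the family, with 33.1% in low and 32.1% in high glucose. The ratio of PLOD1 to PLOD2 was 1.36 in low and 0.84 in high glucose. PLOD1 and PLOD3 were close to each other in high glucose, with a ratio of 0.96, and without replicates their order there cannot be told from equality. Nor can the order of PLOD1 and PLOD2 in high glucose be told from equality. The same limit holds for PLOD3 beside the others. PLOD1 to PLOD3 was 1.16 in low glucose, and PLOD2 to PLOD3 was 0.855 in low and 1.15 in high glucose.

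**Figure D2:**
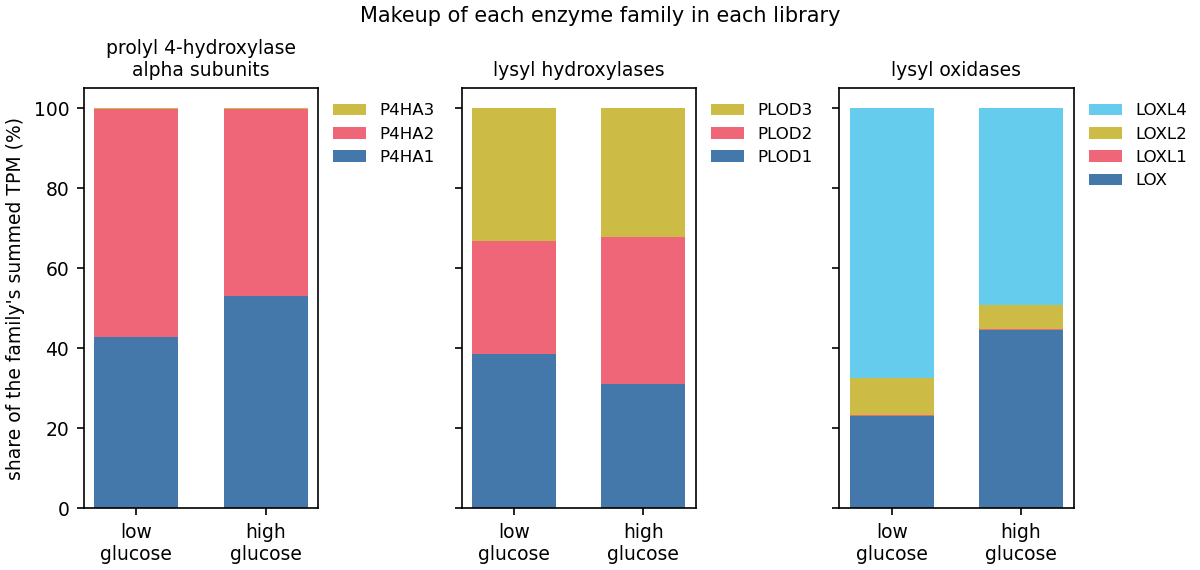
Share of each gene in the summed TPM of its family (percent, stacked to 100), in the low glucose library (left bar) and the high glucose library (right bar) of each panel. P4HA2 held 57.0% of the alpha subunits in low and 46.8% in high glucose, and LOXL4 held 67.5% of the listed lysyl oxidases in low and 49.1% in high glucose.

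The lysyl oxidases showed both the largest and the smallest difference of the 8 genes compared. LOXL2 (chromosome 8, 23154410 to 23261722), a lysyl oxidase with scavenger receptor domains that is known for cross-linking basement membrane and fibrillar collagen in fibrotic liver, stood at 25.8 TPM in low and 8.55 TPM in high glucose. The difference was 1.49, at the 98.9th percentile of all genes compared. LOXL4 (chromosome 10, 100007443 to 100028007), a related enzyme with the same kind of domains, stood at 186 TPM in low and 68.1 TPM in high glucose. Its difference of 1.44 lay at the 98.9th percentile, and its gain of 118 TPM was the largest of the 10 genes. LOX (chromosome 5, 121398890 to 121414055), the founding member of the family, stood at 63.4 TPM in low and 61.7 TPM in high glucose. Its difference of 0.04 was at the 48.7th percentile and lay between -0.05 and 0.12 over the alternatives, below 0 under median-of-ratios, upper-quartile and trimmed-mean scaling.

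LOXL1 (chromosome 15, 74218789 to 74244478), the enzyme most closely tied to elastin, stood at 0.61 TPM in low and 0.22 TPM in high glucose, below the level compared. LOXL3, which is not among the 10 genes, stood at 2.70 TPM in low and 1.90 TPM in high glucose, a difference of 0.35. The abundant lysyl oxidases of these cells were thus LOXL4 and LOX in both libraries, with LOXL2 next.

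LOX and LOXL4 were nearly equal in high glucose and far apart in low glucose. The ratio of LOXL4 to LOX was 2.94 in low and 1.10 in high glucose, and that of LOXL2 to LOX was 0.41 in low and 0.14 in high glucose. LOXL4 and LOXL2 kept a similar proportion to each other, with ratios of 7.22 in low and 7.96 in high glucose. LOX supplied 23.0% of the listed lysyl oxidase TPM in low and 44.5% in high glucose, and LOXL4 supplied 67.5% in low and 49.1% in high glucose. Of the 137 TPM by which the family's sum was higher in low glucose (276 against 139 TPM), LOXL4 made up 118 TPM and LOXL2 17.2 TPM.

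**Figure D3:**
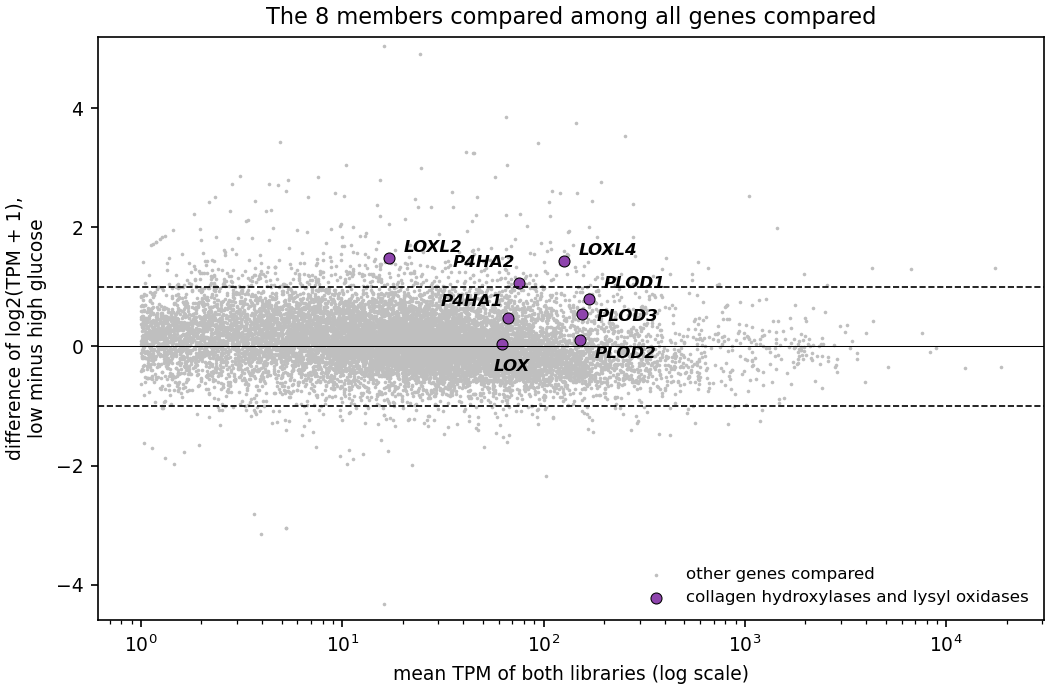
Difference between the libraries on the log2(TPM + 1) scale, as low minus high glucose, against mean TPM (log scale) for the 13745 genes compared (grey), with the 8 genes compared here in purple and dashed lines at the 2-fold rule. LOXL2, LOXL4 and P4HA2 lie above the upper line, at 1.49, 1.44 and 1.06, and LOX (0.04) and PLOD2 (0.11) lie near 0.

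Abundant genes as a whole tended lower in low glucose, but the 8 genes compared here all lay above 0. Of all genes compared, 54.6% lay above 0, and LOX fell below 0 in 3 of the alternatives. The median of genes at the level of PLOD1, PLOD2, PLOD3 and LOXL4 was -0.16, and that of genes at the level of P4HA1 and LOX was -0.08. It was -0.10 at the level of P4HA2 and 0.07 at that of LOXL2, the least abundant of the 8. PLOD2, at 0.11, and LOX, at 0.04, lay above the medians of their levels, and so did the other 6 genes compared. With the median of each level group subtracted, the median of the 8 genes was 0.83. In ranked level, LOXL4 was the 826th most abundant entry in low and the 2705th in high glucose, and P4HA2 the 1657th and the 3671st in low and high glucose. LOX ranked 2845th in low and 2991st in high glucose.

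Reads from neighbouring genes could reach a gene's value where their intervals overlap. Whether the libraries keep strand is not stated. Among entries spanning at most 2000000 bases (130 longer ones, many of them spanning distant copies of a gene, were left out), 5 of the 10 genes overlap another entry. Only the overlap of PLOD3 involves an entry of at least 1 TPM, ZNHIT1, over 27 bases. ZNHIT1 was lower in low glucose, at 99.2 TPM against 157 TPM in high glucose. P4HA2 overlaps the antisense entry P4HA2-AS1, which was at 0 in both libraries.

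Sequence upstream of the start sites is shown for 2 pairs of paralogs whose differences between media were unlike: LOXL4 beside LOX, and PLOD1 beside PLOD2. RefSeq start sites on GRCh38.p14 were matched for 8 of the 10 genes, with P4HA3 and LOXL2 unmatched, and 250 bases before each outermost start were searched. Shown is the part of each window that lies outside annotated exons of the gene, 5′ to 3′ on the gene's strand, with matches to the core of the hypoxia response element (ACGTG or GCGTG on either strand) in capitals. LOXL4 is on the minus strand at chr10:98268251-98268444, LOX on the minus strand at chr5:122078361-122078509, PLOD1 on the plus strand at chr1:11934467-11934693 and PLOD2 on the minus strand at chr3:146161185-146161434.
LOXL4: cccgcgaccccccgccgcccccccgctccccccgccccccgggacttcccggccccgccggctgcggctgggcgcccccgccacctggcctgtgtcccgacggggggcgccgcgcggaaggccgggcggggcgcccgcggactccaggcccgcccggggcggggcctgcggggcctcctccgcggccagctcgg
LOX: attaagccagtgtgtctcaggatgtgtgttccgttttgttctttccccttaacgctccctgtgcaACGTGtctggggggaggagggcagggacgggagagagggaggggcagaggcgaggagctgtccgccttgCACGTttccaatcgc
PLOD1: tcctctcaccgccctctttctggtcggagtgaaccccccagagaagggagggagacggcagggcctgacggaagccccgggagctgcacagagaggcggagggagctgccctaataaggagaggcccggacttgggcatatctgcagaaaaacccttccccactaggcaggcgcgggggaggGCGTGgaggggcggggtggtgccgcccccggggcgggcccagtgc
PLOD2: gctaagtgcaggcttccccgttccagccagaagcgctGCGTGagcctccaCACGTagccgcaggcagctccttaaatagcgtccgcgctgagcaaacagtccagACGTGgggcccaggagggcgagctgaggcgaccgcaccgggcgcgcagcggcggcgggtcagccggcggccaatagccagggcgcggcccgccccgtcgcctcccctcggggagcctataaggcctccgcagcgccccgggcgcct

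The hypoxia response element is the site bound by hypoxia-inducible factors (HIF), and several collagen hydroxylase and lysyl oxidase genes are known HIF targets. The LOXL4 window held 0 matches and its shown part was 88.1% G and C. The LOX window held 4 matches, beginning 185, 116, 98 and 42 bases before the start, of which the first 2 are shown. PLOD1 held 2 matches, at 68 and 25 bases, of which 1 is shown, and PLOD2 held 3, at 213, 200 and 146 bases. P4HA1 held 1 match, at 86 bases. The windows of P4HA2, PLOD3 and LOXL1 held 0, but all 250 bases of each lie inside exons of other annotated transcripts of the gene, so these windows are not upstream of every start. Thus 4 of 8 windows held the core, against 43.1% of 27305 windows over all genes, and no match overlapped another. Neither count leaves out bases inside exons. In P4HA1 the 108 bases next to the start lie inside exons, and its only match is among them. The C/EBP-ATF element TGATGNAA, the endoplasmic reticulum stress response element and the AP-1 element TGANTCA, searched on both strands, were in 0 of the 8 windows, and in 3.19%, 0.077% and 6.57% of all windows. A match is a string of letters and not a shown binding site, and the windows cover only the bases next to the start.

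Genes that work with these enzymes were compared as lists, and their counts describe these libraries only. Of 18 partners of collagen hydroxylation and folding, 3 were at least 2-fold higher and 0 lower, beside 3.65% and 1.10% of all genes compared. The median difference was 0.38, with 14 genes above 0 and 4 below, beside 54.6% of all genes compared above 0. The 3 past the rule were the general chaperones HSP90B1 (2742 TPM in low, 1175 TPM in high glucose), CALR (3419 and 1676 TPM in low and high glucose) and PDIA3 (753 and 345 TPM in low and high glucose). Some collagen-specific members of that list, all within 2-fold, were named after their values were seen. SERPINH1, the collagen chaperone HSP47, stood at 299 TPM in low and 196 TPM in high glucose, a difference of 0.61 that lies between those of PLOD1 and PLOD3. FKBP10, a prolyl isomerase that assists telopeptide lysine hydroxylation by PLOD2, stood at 109 TPM in low and 67.0 TPM in high glucose (0.70). The prolyl 3-hydroxylase gene P3H1, listed as LEPRE1, stood at 106 TPM in low and 93.9 TPM in high glucose (0.17), and its partner CRTAP at 14.4 TPM in low and 11.0 TPM in high glucose (0.36). The 4 genes of the list below 0 were FKBP7 (-0.42), TMEM38B (-0.33), LEPREL4 (-0.03) and FKBP9 (-0.01).

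Collagen chains, which the enzymes act on, and genes of elastin and microfibrils were compared in the same way. Their counts stand beside the 3.65% higher and 1.10% lower of all genes compared. Of 11 fibrillar collagen chains, 7 were at the level compared, 1 of them was at least 2-fold higher and 0 were lower, with a median of 0.34. COL5A2 was the most abundant at 455 TPM in low and 249 TPM in high glucose, followed by COL2A1 at 192 TPM in low and 158 TPM in high glucose, while COL1A1 met the rule at the low levels given above. Of 30 other collagen chains, 12 were compared, 4 were at least 2-fold higher and 1 lower, with a median of 0.56. COL18A1, a basement membrane collagen, stood at 229 TPM in low and 112 TPM in high glucose, COL12A1 at 16.0 TPM in low and 4.29 TPM in high glucose, and COL14A1 at 16.6 TPM in low and 40.6 TPM in high glucose. COL16A1 (2.48 TPM in low, 0.52 TPM in high glucose) and COL4A6 (4.20 TPM in low, 1.47 TPM in high glucose) met the rule from low levels, and COL9A2 stood at 85.0 TPM in low and 66.3 TPM in high glucose. Elastin itself (ELN), a lysyl oxidase substrate, was close to absent at 0.03 TPM in low and 0.02 TPM in high glucose. Of 15 elastin and microfibril genes, 8 were compared, 2 were at least 2-fold higher and 0 were lower, with a median of 0.42. ELN was below the level compared, so these values describe other genes of the list and not elastin. The higher ones were LTBP1 (10.5 TPM in low, 4.15 TPM in high glucose) and FBN1 (10.4 TPM in low, 4.41 TPM in high glucose). FBLN5, named after its values were seen, stood at 19.3 TPM in low and 38.7 TPM in high glucose (-0.97), just short of the rule. FBLN1 stood at 268 TPM in both, and MFAP2 at 57.8 TPM in low and 59.6 TPM in high glucose.

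Of 18 genes of procollagen export and processing, 13 were compared and 0 passed the rule in either direction, with a median of 0.17; this count is near the 3.65% and 1.10% of all genes compared that passed it. BMP1, the protease that activates the LOX precursor, stood at 23.6 TPM in low and 14.8 TPM in high glucose (0.64), whereas LOX itself was level. FURIN (424 TPM in low, 464 TPM in high glucose) and SEC13 (238 TPM in low, 315 TPM in high glucose) were the most abundant of the list.

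Lists of relatives and of cofactor supply had counts past the rule near the 3.65% higher and 1.10% lower of all genes compared. Of 27 other 2-oxoglutarate oxygenases, which share the cofactors of the P4HA and PLOD enzymes, 26 were compared, 1 was at least 2-fold higher and 0 were lower, with a median of 0.22. That gene was the histone demethylase KDM6B (51.1 TPM in low, 23.2 TPM in high glucose). ASPH stood at 223 TPM in low and 172 TPM in high glucose, and PHYH at 85.4 TPM in low and 148 TPM in high glucose. Of 17 genes of copper delivery and other copper enzymes, 14 were compared and 0 passed the rule, with a median of -0.01. ATOX1, the chaperone that hands copper to the secretory pathway where lysyl oxidases receive it, was named after its values were seen and stood at 89.2 TPM in low and 165 TPM in high glucose (-0.88). In the same list ATP7A (0.01), ATP7B (0.29) and SLC31A1 (0.11), also named after their values were seen, were level or slightly higher. Of the 14 genes compared, 7 lay above 0 and 7 below, beside 54.6% of all genes compared above 0. SOD1 stood at 299 TPM in low and 357 TPM in high glucose, and CCS at 232 TPM in low and 227 TPM in high glucose. Of 15 genes of iron and ascorbate supply, 0 passed the rule, with a median of 0.28. FTL stood at 10827 TPM in low and 13904 TPM in high glucose and FTH1 at 8835 TPM in low and 8986 TPM in high glucose. The ascorbate transporters SLC23A2 (53.1 TPM in low, 33.6 TPM in high glucose) and SLC23A1 (11.6 TPM in low, 6.28 TPM in high glucose), named after their values were seen, were higher without reaching 2-fold. ACO1 (-0.83) and PCBP1 (-0.59), named in the same way, were lower without reaching 2-fold. Of these 15 genes, 8 lay above 0 and 7 below, which is near the share of all genes compared above 0 (54.6%).

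The last 4 lists, of stress and growth factor targets, are given beside the enzymes because P4HA1, P4HA2, PLOD2 and LOX are known HIF targets and LOX and PLOD2 are also known to respond to TGF-beta. Their counts stand beside 3.65% of all genes compared at least 2-fold higher and 1.10% at least 2-fold lower. Of 26 HIF-responsive genes, 25 were compared, 7 were at least 2-fold higher and 0 lower, with a median of 0.29. The list also holds genes of the HIF subunits themselves, named after their values were seen, and the counts and median include them. HIF1A stood at 174 TPM in low and 193 TPM in high glucose (-0.15), EPAS1 at 74.1 and 100 TPM (-0.43), and ARNT was nearly level (-0.05). LDHA, the most abundant of the list, stood at 504 TPM in low and 818 TPM in high glucose. Of the 7, BHLHE40 had a difference of 2.21, SLC2A1 of 1.63, VEGFA of 1.54 and PDK1 of 1.38. FAM162A, the next most abundant of the list, was within 2-fold (-0.03). Of 15 TGF-beta matrix targets, 13 were compared, 5 were at least 2-fold higher and 0 lower, with a median of 0.84; the most abundant was TGFBI, at 1189 TPM in low and 710 TPM in high glucose. Of 21 ATF4 targets, 15 were at least 2-fold higher and 0 lower, with a median of 2.34. Of 18 chaperones and disulfide enzymes of the endoplasmic reticulum, where the hydroxylases reside, 9 were at least 2-fold higher and 0 lower, with a median of 0.98. This list shares 4 genes with the folding partners, P4HB, PDIA3, CALR and HSP90B1, so the 3 folding partners past the rule are counted in both. The HIF-responsive genes share EGLN1, EGLN3 and KDM3A with the oxygenases. Whether any of these programmes has a part in the values of the collagen enzymes was not tested.

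**Figure D4:**
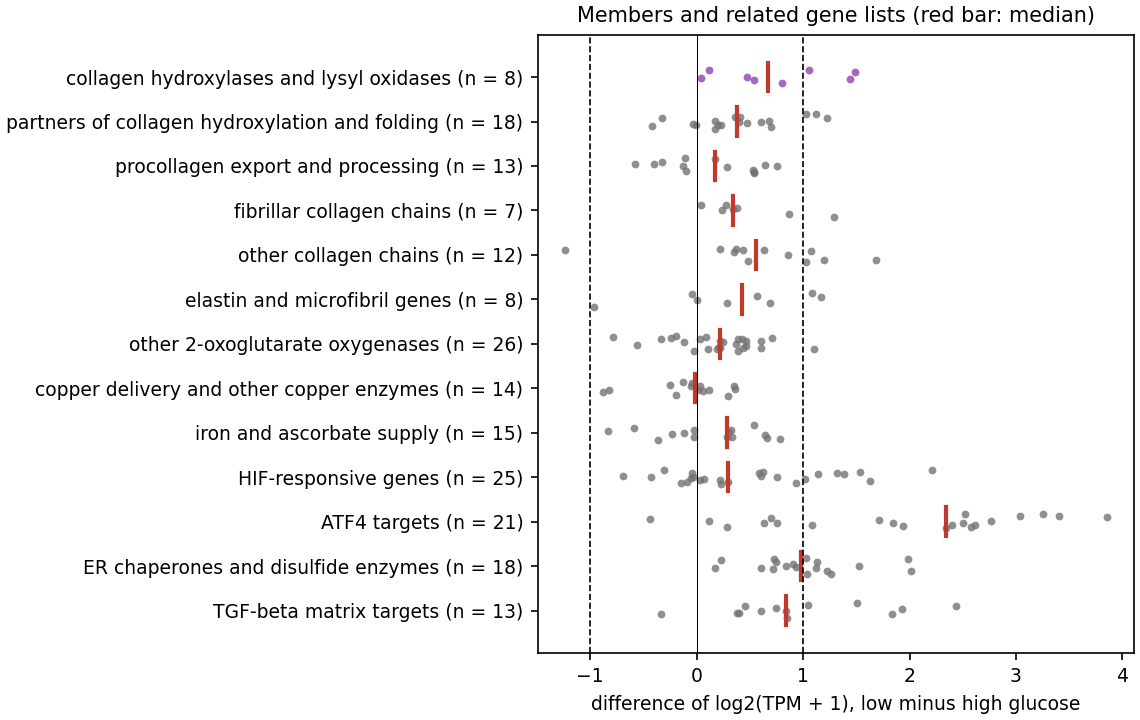
Difference between the libraries on the log2(TPM + 1) scale, as low minus high glucose, of each gene compared in the collagen enzymes (purple) and in 12 related lists (grey), with the median of each list as a red bar and dashed lines at the 2-fold rule. The medians are 0.67 for the collagen enzymes, 0.38 for their folding partners and 0.98 for the endoplasmic reticulum chaperones, the last 2 lists sharing 4 genes, and vertical scatter within a row carries no value.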

How the data were processed

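RNA from 1 low glucose and 1 high glucose culture of Huh7 cells was sequenced, and groups follow the treatment label. The authors deposited 1 TPM value per gene entry and library, per the file headers. The submitters' processing notes name cutadapt (adapter trimming), RSEM 1.2.21 (abundance estimation, which divides reads shared by several genes) and hg19. The aligner, annotation, strand setting and read number were not given in the sources used here, so depth is unknown. TPM has a fixed total, so genes that take a larger share lower all others.

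Both libraries were compared over all genes with a mean of at least 1 TPM by the difference of log2(TPM + 1), and a gene met the rule at 2-fold. This scale understates the change of low genes. No p-value is given, with 1 library per medium. The procedure was run on simulated pairs of libraries with seeded changes larger than 2-fold, little random spread and no genes of the lowest levels. That run does not show how changes near 2-fold are called, or how much single cultures vary. The genes, 12 related lists and 4 marker lists were chosen with earlier results of these data known. All 10 genes are named. From other lists the 2 most abundant genes and up to 4 past the rule were to be named; for the ATF4, chaperone and TGF-beta lists most of these are left out for length, and genes named outside the rule are marked or serve a result of a listed enzyme. Upstream sequences came from RefSeq (GRCh38.p14), exons from GENCODE release 29. Python 3.11.15, numpy 2.4.6 and pandas 2.3.3 were used.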

Additional observations from a re-analysis of the deposited data

How the results depend on the processing

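The comparison was repeated under 12 alternatives: pseudocounts of 0.1 and 5, 4 other scalings, subtraction of the median of 20 expression level groups, no filter or a mean of at least 10 TPM, thresholds of 1.5-fold and 3-fold, and removal of entries that share an interval. The scalings moved the median of all genes to between -0.03 and 0.08. LOXL2 (1.18 to 1.58) and LOXL4 (1.35 to 1.60) met the 2-fold rule in every setting that kept it. P4HA2 (0.97 to 1.16) missed it under median-of-ratios scaling (0.97) and trimmed-mean scaling (0.97), which lower the low glucose values by factors of 1.06 and 1.07 against the high and leave 2 genes past the rule. Under these scalings 3.02% and 2.99% of all genes compared were at least 2-fold higher. At 3-fold, 0 of the 8 genes passed, beside 0.866% of all genes compared higher and 0.16% lower. The plain TPM ratio of LOXL2 was 3.01, and the pseudocount of 1 keeps it short of that threshold. At 1.5-fold 4 genes passed as higher, PLOD1 being added, beside 13.0% of all genes compared higher and 6.07% lower. The median of the genes compared was 0.83 with level group medians subtracted and 0.51 with no filter, which adds P4HA3 and LOXL1. No gene was 2-fold lower in any setting, and only LOX changed sign, in 3 settings. No paired analysis was possible because each medium has 1 library. The depth is unknown, which bears most on the low values of P4HA3, LOXL1 and LOXL2.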
